A study of Mus musculus with 5 samples.

Results

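Semaphorins are guidance proteins, plexins and neuropilins are their receptors, and together they form a signalling family of 31 genes in the annotation used here. The members were chosen by gene name, but with earlier results of these data known. They are 20 semaphorin genes (*Sema3a* to *Sema7a*), 9 plexin genes and 2 neuropilin genes, out of 19938 genes that the array annotation names from probe sets with a single symbol. All 31 had a probe set. They were measured in neurons of the mouse primary somatosensory cortex (S1) that had been sorted by projection target and by layer, with 1 array for each of 5 groups. The groups were association neurons of layer 6b (L6b), association neurons of layer 5 (L5), association neurons of layer 2/3 (L2/3), callosal neurons of L5 and callosal neurons of L2/3. Long association neurons were labelled from the primary motor cortex (M1) of the same hemisphere and callosal neurons from S1 of the other hemisphere, in both cases with the retrograde tracer Green RetroBeads. All animals were ICR mice with no gene deleted, collected at postnatal day 24, 3 days after the injection at postnatal day 21. According to the methods, all of them also carried the plasmid pCAGGS-tdTomato in L2/3 neurons, introduced by *in utero* electroporation. About 1000 labelled cells per group were cut out of frozen sections by laser microdissection, and their RNA was amplified before hybridization. How many mice stand behind each array is not stated in the labels or methods, and callosal neurons of L6b were not analysed here.

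In the developing cortex, semaphorins act mostly as repellents on growing axons, and later they take part in dendrite growth and in the shaping of synapses. Class 3 semaphorins are secreted and bind a neuropilin, which pairs with an A-type plexin that carries the signal into the cell, whereas the membrane-bound classes bind plexins directly. Inside the cell, plexins act on small GTPases and on the actin and microtubule cytoskeleton through kinases, collapsin response mediator proteins and MICAL enzymes.

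All values are log2 signals from which the median of the array was subtracted, so that 0 is the median probe set of an array and a difference of 1 is 2-fold. The 5 array medians lay between 5.71 and 5.80 before subtraction, and the arrays correlated with each other at r = 0.918 to 0.938 over all probe sets. With 1 array per group no difference has a replicate check, no test was run and no p-value is given. The size of 2-fold served as the rule for a call, and counts at this size are set beside the share of all genes that meet the same rule. Genes whose signal was at or above the array median in 1 array or more were kept, which held for 12632 genes and for 26 of the 31 members. *Sema3c*, *Sema3d*, *Sema4f*, *Plxnb2* and *Nrp1* stayed below the median in every array, so their order between arrays is not read. Levels of different genes are not compared, because probe sets differ in brightness. In pooled cells such as these, fewer cells of a type and less RNA per cell cannot be told apart.

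The labelled layers were checked with marker lists, given as sums of log2 signal minus the array median over each list. The 8 L6b/SP markers summed to 15.77 in association L6b, against 1.08, 1.19, 1.36 and 0.15 in association L5, association L2/3, callosal L5 and callosal L2/3, and all 8 were highest in L6b, though 2 of them stayed below the median in every array. That list contains *Kcnab1* and *Ctgf*, which the study picked from these arrays. The 7 L2/3 markers summed to between 1.47 and 9.66 in the L6b and L5 arrays, and to 19.92 and 18.25 in the association and callosal L2/3 arrays. The 6 L5 markers summed to 14.40 and 13.16 in the association and callosal L5 arrays and to between 6.70 and 10.37 elsewhere, but only 2 of them were highest in an L5 array, while 3 (*Bcl11b*, *Pcp4* and *Crym*) were highest in L6b and *Etv1* in association L2/3. Markers of cells other than cortical projection neurons were present too. The 9 measured myelin genes summed to 20.70 in the L6b array, to 17.62 and 14.01 in the association and callosal L5 arrays, but to only 3.11 and 3.43 in the association and callosal L2/3 arrays, with 4 of the genes highest in L6b, 3 in association L5 and 2 in callosal L5. The 6 GABAergic neuron markers summed to 4.43 in association L6b, against 12.55 to 16.92 in the other 4 arrays. Of them, 4 were lowest in L6b, but *Slc32a1* was lowest in callosal L5 and *Vip* in association L5. The 6 glutamatergic neuron markers summed to 14.11 in association L6b, against 20.01 to 21.60 elsewhere. Here too 4 were lowest in L6b, but *Slc17a7* and *Neurod6* were lowest in association L2/3. The sums for oligodendrocyte precursors (1.79 to 2.91), astrocytes (4.27 to 6.32), microglia (2.84 to 3.98) and endothelial and mural cells (0.55 to 1.42) spanned narrower ranges.

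**Figure D1:**
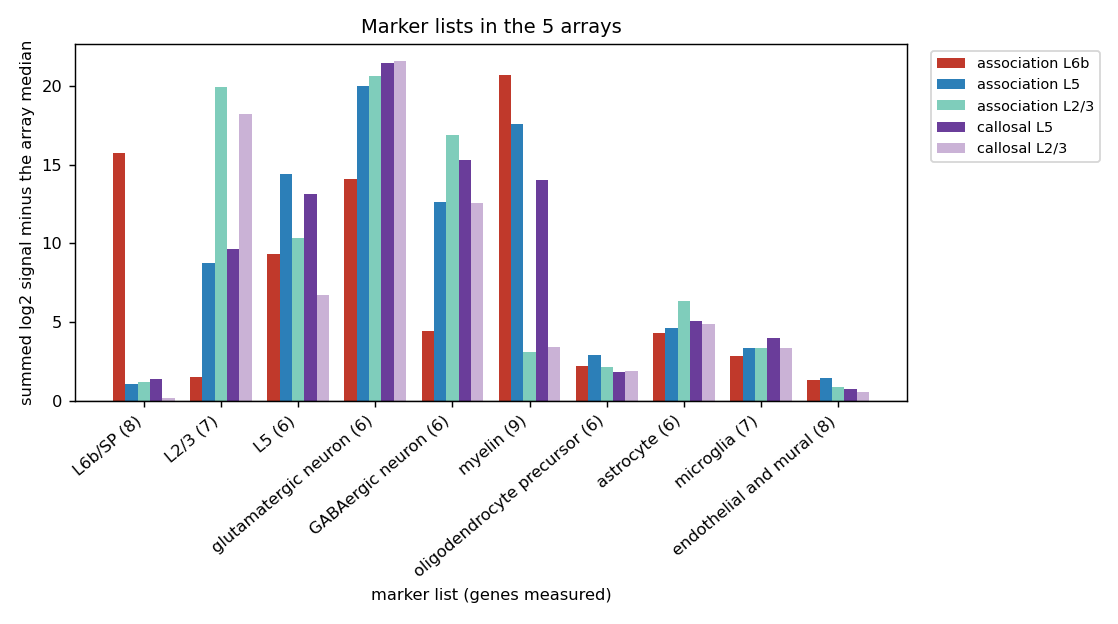
Summed log2 signal minus the array median (vertical axis) for 10 marker lists (horizontal axis, with the number of genes measured), with 1 bar for each of the 5 arrays. The L6b/SP list is high only in association L6b, with a sum of 15.77, and the myelin list is low only in the 2 L2/3 arrays, with sums of 3.11 and 3.43.

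The family varied between these arrays about as much as all genes kept did. The highest and lowest arrays were at least 2-fold apart for 7 of the 26 kept members, or 26.9%, against 29.5% of all genes kept, and the median range was 0.55 log2 units for the members against 0.53 for all genes. The 7 were the semaphorins *Sema3a*, *Sema4d*, *Sema5a*, *Sema6d* and *Sema7a* and the plexins *Plxna2* and *Plxna4*, with ranges of 1.04 to 2.54. The other 19 kept members had ranges of 0.06 to 0.93. By class, a 2-fold range was reached by 1 of 5 kept class 3 semaphorins, 1 of 5 of class 4, 1 of 2 of class 5, 1 of 4 of class 6, the only member of class 7, 2 of 4 A-type plexins, and none of the 4 kept plexins of types B, C and D or the kept neuropilin.

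**Figure D2:**
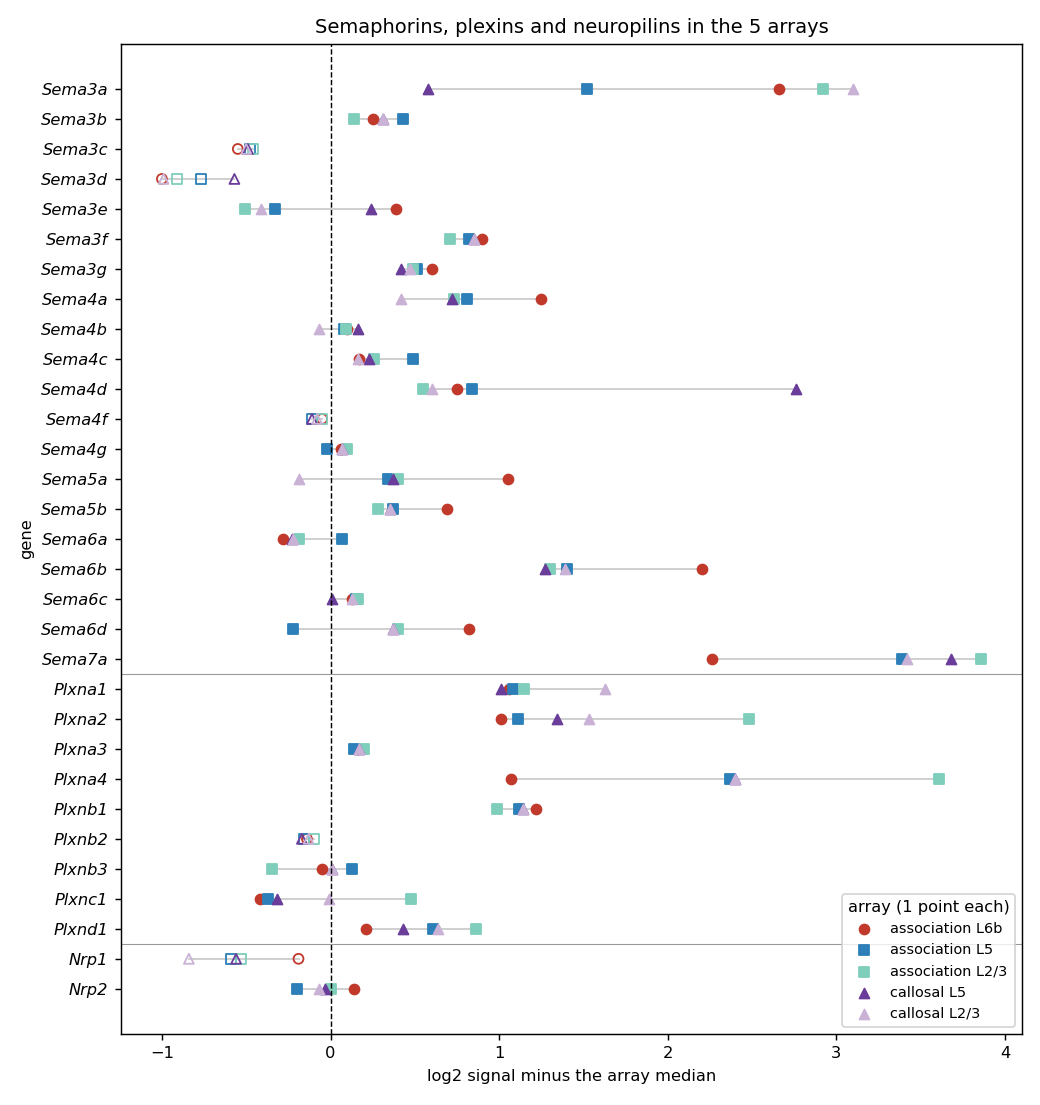
Log2 signal minus the array median (horizontal axis) of each of the 31 members (vertical axis), with 1 point for each of the 5 arrays, a line over the range, and open symbols for the 5 members below the median in every array. *Sema3a* and *Plxna4* have the widest ranges, 2.52 and 2.54, and most other members lie within 1 log2 unit.

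The sequences before the start sites of 4 members whose layer patterns are described next are shown because 2 of these members were highest in L6b (*Sema5a* and *Sema6b*), 1 was lowest there (*Sema7a*) and 1 was lowest in both L5 arrays (*Sema3a*). Each is the 250 bases before a RefSeq start in GRCm38.p6, written 5′ to 3′ on the strand of the gene, with capitals for GC boxes (GGGCGG, or CCGCCC for the other strand), the motif bound by Sp1 and related factors.
Sema3a promoter, chr5:13396534-13396783, plus strand: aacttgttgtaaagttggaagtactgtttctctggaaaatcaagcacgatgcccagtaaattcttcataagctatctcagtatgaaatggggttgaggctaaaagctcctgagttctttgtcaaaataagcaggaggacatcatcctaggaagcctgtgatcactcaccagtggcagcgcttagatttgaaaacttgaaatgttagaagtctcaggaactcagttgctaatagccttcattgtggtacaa
Sema7a promoter, chr9:57939862-57940111, plus strand: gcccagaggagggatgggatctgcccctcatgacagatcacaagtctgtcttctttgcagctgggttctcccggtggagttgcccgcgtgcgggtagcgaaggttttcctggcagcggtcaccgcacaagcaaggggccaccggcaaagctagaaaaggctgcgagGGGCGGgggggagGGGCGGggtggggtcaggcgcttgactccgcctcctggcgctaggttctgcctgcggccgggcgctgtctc
Sema5a promoter, chr15:32244563-32244812, plus strand: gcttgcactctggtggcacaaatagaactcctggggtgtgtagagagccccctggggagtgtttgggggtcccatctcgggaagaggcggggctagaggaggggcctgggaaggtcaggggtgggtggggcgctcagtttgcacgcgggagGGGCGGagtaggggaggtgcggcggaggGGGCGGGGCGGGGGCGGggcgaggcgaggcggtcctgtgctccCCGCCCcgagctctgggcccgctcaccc
Sema6b promoter, chr17:56140344-56140593, minus strand: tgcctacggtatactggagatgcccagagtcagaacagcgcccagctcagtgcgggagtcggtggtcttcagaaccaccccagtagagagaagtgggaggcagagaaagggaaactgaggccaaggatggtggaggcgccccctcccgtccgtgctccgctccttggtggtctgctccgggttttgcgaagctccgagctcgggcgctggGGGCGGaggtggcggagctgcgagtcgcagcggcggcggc
The *Sema5a* sequence held 5 GC boxes, of which neighbouring ones overlap, and 72.0% G and C. *Sema7a* held 2 boxes at 66.4%, and *Sema6b* held 1 box at 66.0%. The *Sema3a* sequence held none and had 40.8% G and C, a content that 14.1% of all promoters in the RefSeq table were at or below. Its listed start lies inside the annotated span of the gene, so other starts of *Sema3a* are not covered. Over the 37 promoters listed for 26 members, 27 (73.0%) held at least 1 GC box, against 32.7% of all 32851 promoters and 54.4% of the 12707 promoters of genes kept. *Plxna1*, *Plxna4*, *Sema3b*, *Sema3f* and *Sema6a* are not among the 26. Such a match describes letters only.

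*Sema3a*, the secreted repellent that signals through neuropilin-1 and A-type plexins, was low in L5 neurons of both projections. Its value was 2.66 in L6b, 1.52 in L5 and 2.92 in L2/3 among association neurons, and 0.58 in L5 and 3.10 in L2/3 among callosal neurons. Both L5 arrays thus lay below the L6b array and both L2/3 arrays, with no overlap, and the nearest of the 3 was 1.14 log2 units above the higher L5 array. L5 was lower than L2/3 by 1.40 in association neurons (2.64-fold) and lower by 2.52 in callosal neurons (5.74-fold). L6b exceeded L5 of the same projection by 1.14 (2.20-fold) and differed from association L2/3 by -0.26. Between projections, *Sema3a* was 0.94 higher in association L5 than in callosal L5, under the 2-fold rule, and differed by -0.18 in L2/3. The myelin sums were 17.62 and 14.01 in the association and callosal L5 arrays, 20.70 in L6b, and 3.11 and 3.43 in the association and callosal L2/3 arrays, and their part in the *Sema3a* values was not tested.

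After the values were seen, all genes were searched for the pattern of *Sema3a*. In 13 of 12632 genes (0.103%) both L5 arrays were at least 2-fold below each of the other 3 arrays, and in 16 genes (0.127%) at least 2-fold above. The rule was taken from the values of *Sema3a*, so its place among the 13 was fixed in advance, and no other family member was among them. Of the partner genes, 1 of 10 kept adhesion and receptor partners met the rule and 0 of 26 kept cytoplasmic effectors. These lists were chosen with earlier results of these data known, so nothing is read from the match. The partner was *Chl1*, which encodes the close homologue of L1, an adhesion molecule that binds neuropilin-1 and takes part in the response to Sema3A. *Chl1* was 3.52 in L6b, 0.57 in L5 and 2.82 in L2/3 among association neurons, and 1.25 in L5 and 2.76 in L2/3 among callosal neurons. Its higher L5 array was 1.51 below the lowest of the other 3. The remaining 11 were *Trps1*, *Styx*, *Mir128-1*, *Rab8b*, *Hint3*, *Tex9*, *S100a6*, *Snora44*, *Haus1*, *D430042O09Rik* and *4933431E20Rik*, none of which is on the lists of the family or its partners.

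**Figure D3:**
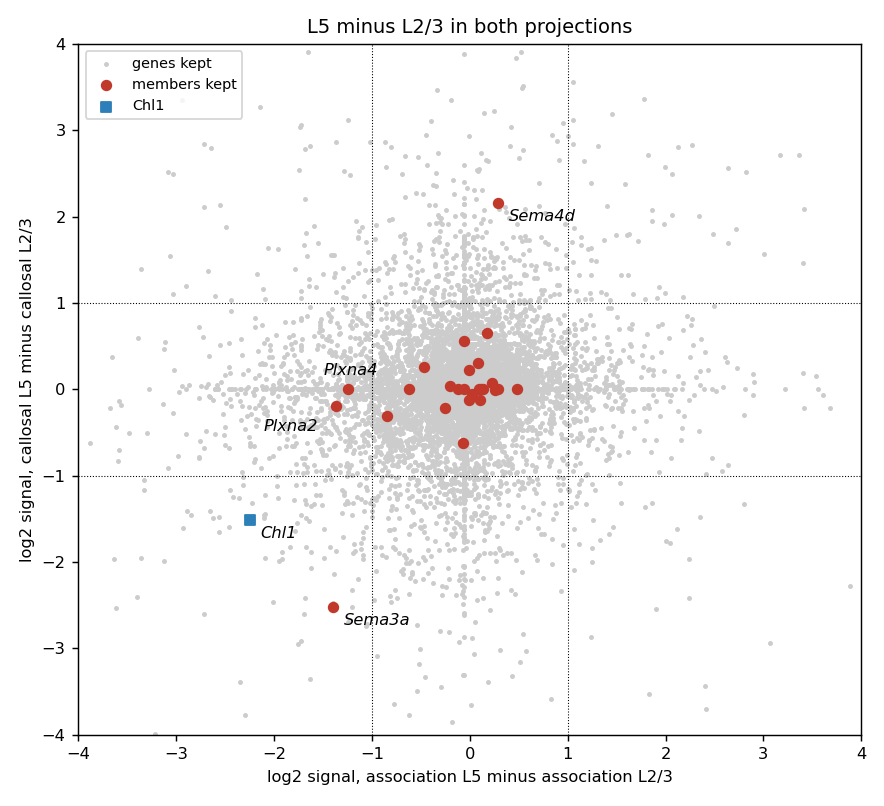
Difference of log2 signal between L5 and L2/3 in association neurons (horizontal axis) and in callosal neurons (vertical axis), for all genes kept (grey), the 26 kept members (red) and *Chl1* (blue), with dotted lines at 2-fold and 38 genes beyond the axis limits of 4. *Sema3a* lies at -1.40 and -2.52, more than 2-fold lower in L5 in both, whereas *Plxna4* and *Plxna2* are past 2-fold in association neurons only and *Sema4d* in callosal neurons only.

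The other class 3 semaphorins moved less. *Sema3e*, which is unusual in its class for binding plexin-D1 without a neuropilin, was 0.39 in L6b, -0.33 in L5 and -0.51 in L2/3 among association neurons, and 0.24 in L5 and -0.41 in L2/3 among callosal neurons. L6b and callosal L5 were thus its upper arrays, 0.15 apart. *Sema3e* reached the median in these 2 arrays only, through which it was kept, so its order among the other arrays is not read. *Sema3b*, *Sema3f*, which signals through neuropilin-2 and plexin-A3, and *Sema3g* had ranges of 0.29, 0.19 and 0.18, within which no layer or projection stood out. On chromosome 5, *Sema3a* lies next to *Sema3d* in RefSeq order with no protein-coding gene between them, and *Sema3e* follows after 3 others. *Sema3d* was below the median in every array, and *Sema3e* was kept through L6b and callosal L5 alone. Neither is therefore set against the L5 values of *Sema3a*.

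Among class 4 semaphorins, transmembrane ligands of B-type plexins, *Sema4d* was called, but by only 1 of its probe sets. *Sema4d*, a ligand of plexin-B1 with a role in the formation of inhibitory synapses, was 0.75 in L6b, 0.84 in L5 and 0.55 in L2/3 among association neurons, and 2.76 in L5 and 0.60 in L2/3 among callosal neurons. Callosal L5 thus lay 1.92 above its nearest array (3.78-fold), association L5, and 2.16 above callosal L2/3. The other *Sema4d* probe set had 0.64, 0.67, 0.71, 0.69 and 0.49 in the same order of arrays, a range of 0.22, and by it association and callosal L5 differed by -0.02. The brighter probe set is annotated to a predicted transcript only, so the callosal L5 value rests on 1 probe set in 1 array. *Sema4a*, which can bind plexins of the B and D types, was 1.25 in L6b, 0.81 in L5 and 0.73 in L2/3 among association neurons, and 0.72 in L5 and 0.42 in L2/3 among callosal neurons. It was highest in L6b, by 0.44 over the nearest array. *Sema4b*, *Sema4c* and *Sema4g* had ranges of 0.23, 0.33 and 0.12.

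*Sema5a*, *Sema6b* and *Sema6d*, 3 transmembrane semaphorins, were highest in L6b. *Sema5a*, whose extracellular part carries thrombospondin repeats, was 1.05 in L6b, 0.34 in L5 and 0.40 in L2/3 among association neurons, and 0.37 in L5 and -0.19 in L2/3 among callosal neurons. *Sema6b*, a ligand of plexin-A4, was 2.20 in L6b, 1.40 in L5 and 1.30 in L2/3 among association neurons, and 1.27 in L5 and 1.39 in L2/3 among callosal neurons. In both genes the L6b array stood above the rest, by 0.65 over the nearest array for *Sema5a* and by 0.80 (1.74-fold) for *Sema6b*, which is under the 2-fold rule. *Sema6d*, a ligand of plexin-A1, was 0.82 in L6b, -0.22 in L5 and 0.40 in L2/3 among association neurons, and 0.37 in L5 and 0.37 in L2/3 among callosal neurons. Its L6b value exceeded association L5 by 1.04 (2.06-fold) and the other arrays by no more than 0.45. The myelin sums were 20.70 in L6b, 17.62 and 14.01 in association and callosal L5, and 3.11 and 3.43 in association and callosal L2/3. Their part in the values of these 3 genes was not tested. *Sema6a*, a ligand of plexin-A2 and plexin-A4, *Sema6c* and *Sema5b* had ranges of 0.35, 0.15 and 0.41.

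*Sema7a* was the semaphorin that was lower in L6b than in every other array by more than 2-fold. This protein is held in the membrane by a lipid anchor, promotes axon growth through integrin beta-1 and also binds plexin-C1. Its value was 2.26 in L6b, 3.39 in L5 and 3.86 in L2/3 among association neurons, and 3.68 in L5 and 3.42 in L2/3 among callosal neurons. The 4 other arrays lay within 0.47 of each other, and L6b was 1.13 below the lowest of them (2.19-fold). Relative to the mean of the other arrays, L6b was lower by 1.33, and relative to association L2/3 by 1.60 (3.03-fold). After quantile normalization of the arrays, the gap to the nearest array fell under 2-fold. GABAergic and glutamatergic marker sums were also lowest in L6b, though only 4 of 6 genes in each list were lowest there. Their part in the result was not tested.

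Among plexins, the receptors that carry the signal, the widest differences were in *Plxna4* and *Plxna2*. *Plxna4*, the plexin-A4 receptor for Sema3A and for class 6 semaphorins, was 1.07 in L6b, 2.37 in L5 and 3.61 in L2/3 among association neurons, and 2.40 in L5 and 2.40 in L2/3 among callosal neurons. L6b was 1.30 below its nearest array (2.46-fold) and association L2/3 was 1.21 above its nearest (2.31-fold), so that this gene stood apart at both ends. Within association neurons its level thus differed by more than 2-fold at each step between L6b, L5 and L2/3, whereas the 2 callosal arrays had the same deposited value. The deposited value of *Plxna4* was 8.14 in 3 of the arrays, association L5 and both callosal arrays, to the 2 decimals given. As with *Sema7a*, the part of the lower neuronal marker sums in the L6b value was not tested.

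*Plxna2*, a receptor for class 3 and class 6 semaphorins, was 1.01 in L6b, 1.11 in L5 and 2.48 in L2/3 among association neurons, and 1.34 in L5 and 1.53 in L2/3 among callosal neurons. Association L2/3 was its highest array, 0.95 above callosal L2/3, 1.37 above association L5 (2.58-fold) and 1.47 above L6b (2.77-fold). *Plxnc1*, which encodes the plexin that binds Sema7A, was likewise highest in association L2/3, at 0.48, with -0.42 in association L6b, -0.37 in association L5, -0.32 in callosal L5 and -0.01 in callosal L2/3, all under 2-fold from it. *Plxnd1*, the receptor for Sema3E, was 0.21 in L6b, 0.61 in L5 and 0.86 in L2/3 among association neurons, and 0.43 in L5 and 0.64 in L2/3 among callosal neurons. *Plxnc1* reached the median in association L2/3 alone, through which it was kept, so its order among the other arrays is not read. *Plxna4*, *Plxna2* and *Plxnd1*, at or above the median in all 5 arrays, were highest in association L2/3 and lowest in L6b. For *Plxna2* the gap at the low end was only 0.10, and for *Plxnd1* it was 0.22 at each end. Of all genes kept, 30.5% were lowest in L6b by any size, so no shared plexin pattern is read from this.

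**Figure D4:**
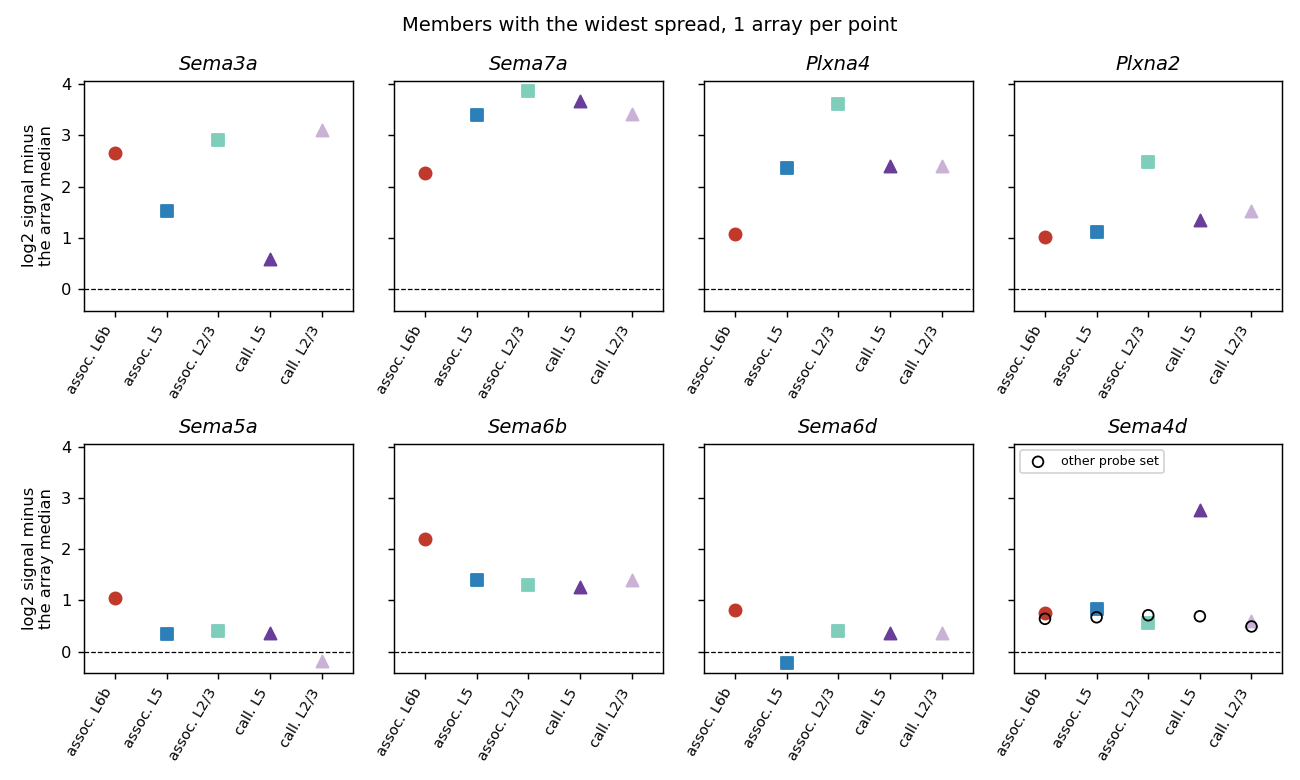
Log2 signal minus the array median (vertical axis) in each of the 5 arrays (horizontal axis) for the 8 kept members with the widest ranges, with open circles for the second probe set of *Sema4d*. *Sema7a* and *Plxna4* are lowest in L6b, *Sema3a* is lowest in both L5 arrays, and the 2 probe sets of *Sema4d* part only in callosal L5 (2.76 and 0.69).

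*Plxna1*, the receptor for Sema6D, was between 1.01 and 1.15 in 4 arrays and 1.63 in callosal L2/3. *Plxna3*, which pairs with neuropilin-2 in the response to Sema3F, had the same deposited value of 5.91 in 4 of 5 arrays and a range of 0.06. *Plxnb1*, the receptor for Sema4D, had a range of 0.23, and *Plxnb3* a range of 0.48. *Nrp2*, the neuropilin that binds Sema3F, was 0.14 in association L6b and between -0.20 and 0.00 in the other arrays, a range of 0.34. *Nrp1*, the neuropilin that binds Sema3A, was between -0.84 and -0.19 and thus below the median throughout, so the patterns of *Sema3a* and *Plxna4* have no readable counterpart in *Nrp1* on these arrays.

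Set side by side, known ligands and receptors did not share one pattern. *Sema6b* was highest in L6b, where its receptor gene *Plxna4* was lowest. *Sema3e* reached the median only in L6b and callosal L5, through which it was kept, so it is not set against *Plxnd1*. *Sema7a* was lowest in L6b, where *Itgb1*, the integrin beta-1 gene, was highest. *Sema7a* and *Plxnc1*, the gene of its plexin, were both highest in association L2/3, at 3.86 and 0.48, though *Plxnc1* was kept through that array alone. *Sema3f*, *Plxna3* and *Nrp2* all had narrow ranges, of 0.19, 0.06 and 0.34. Of 17 kept semaphorins, *Sema3a* was the only one at least 2-fold lower in L5 than in L2/3 in both projections. These are values of single arrays that many genes share, and no relation between genes was tested.

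Counted over the family, the members called in L6b and their direction followed the size of the rule. Against the mean of the other 4 arrays, no kept member was at least 2-fold higher in L6b, against 2.44% of all genes, and 2 of 26 (*Sema7a* and *Plxna4*) were at least 2-fold lower, against 6.55%. L6b against association L5 gave 2 higher (*Sema3a* and *Sema6d*, background 3.5%) and 2 lower (*Sema7a* and *Plxna4*, background 7.16%). L6b against association L2/3 gave none higher (background 2.83%) and 3 lower (*Sema7a*, *Plxna2* and *Plxna4*, background 10.6%). At 1.5-fold, 5 members were higher and 3 lower in L6b against the mean, 5 higher and 2 lower against association L5, and 3 higher and 5 lower against association L2/3. These comparisons share the L6b array, so they are not independent of each other. The share of all genes was taken at 2-fold only, so the 1.5-fold counts have no background and are not read as a trait of the family. Without regard to size, 10 of 26 members were highest in L6b, against 21.3% of all genes, and 6 of 26 were lowest there, against 30.5%. The 10 were *Sema3e*, *Sema3f*, *Sema3g*, *Sema4a*, *Sema5a*, *Sema5b*, *Sema6b*, *Sema6d*, *Plxnb1* and *Nrp2*. Of these 8 were semaphorins, as were 17 of the 26 kept members. *Sema3f*, *Sema3g* and *Plxnb1* were highest by only 0.05, 0.09 and 0.08. *Sema3e* and *Nrp2* reached the median in only 2 arrays, L6b among them. The 6 lowest there were *Sema6a*, *Sema7a*, *Plxna2*, *Plxna4*, *Plxnc1* and *Plxnd1*, of which *Sema6a* and *Plxnc1* reached the median in 1 other array only. These counts, or the shares of all genes beside them, hang on the scaling. Quantile normalization kept the counts at 10 and 6, while the shares of all genes became 29% and 23.8%. With the values as deposited, 13 members were highest in L6b (26.6% of all genes) and 5 lowest (17.4%), without *Sema6a*, and with the 75th percentile subtracted 14 were highest (36.9%) and 4 lowest (15.4%). The median L6b enrichment was 0.01 for the members and -0.06 for all genes.

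Association and callosal neurons of the same layer differed in few members. In L2/3, *Plxna4* alone was at least 2-fold higher in association neurons, with 3.61 against 2.40 in callosal neurons (2.31-fold, background 5.07%), and none was lower (background 3.48%). *Plxna2* came next, with 2.48 in association L2/3 and 1.53 in callosal L2/3. In L5, none was higher in association neurons (background 3.49%) and *Sema4d* alone was lower (background 4.97%), by the probe set described above. All other members differed by less than 2-fold between the projections, and no member was at least 2-fold apart in both layers.

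Between layers of the same projection, L5 against L2/3 in association neurons gave none higher (background 3.48%) and 3 lower, *Sema3a*, *Plxna2* and *Plxna4* (background 7.36%). In callosal neurons it gave 1 higher, *Sema4d* (background 4.08%), and 1 lower, *Sema3a* (background 4.52%). Over all 7 differences, 6 of 26 members were called at least once and 20 were not, against 3394 of the 12632 genes kept called at least once. Of the 26 members, 3 had an array that lay at least 2-fold apart from each of the others, against 11.9% of all genes, with *Sema7a* and *Plxna4* lower in L6b (background 2.82%), *Plxna4* higher in association L2/3 (background 2.34%) and *Sema4d* higher in callosal L5 (background 1.31%). These counts are near the shares among all genes, and nothing particular to the family is read from them. *Sema3a* was not in that count, because both L5 arrays were low. Without association L5, *Sema3a* was at least 2-fold apart in callosal L5, and without callosal L5 it was so in association L5.

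Genes that work with the family were taken from 2 lists of 43 genes in all, of which 36 were kept. Of 10 kept adhesion and receptor partners, 3 had a range of at least 2-fold (*Chl1*, *Itgb1* and *Tyrobp*), and of 26 kept cytoplasmic effectors 6 did (*Mical2*, *Cdk5*, *Gsk3b*, *Rras*, *Limk1* and *Dpysl2*), against 29.5% of all genes. *Itgb1*, the integrin subunit that Sema7A binds, was 2.25 in L6b, 1.12 in L5 and 1.18 in L2/3 among association neurons, and 0.50 in L5 and 0.97 in L2/3 among callosal neurons. L6b was thus 1.07 above its nearest array (2.10-fold), opposite in direction to *Sema7a*. The myelin sums were 20.70 in L6b, 17.62 and 14.01 in association and callosal L5, and 3.11 and 3.43 in association and callosal L2/3. Their part in the *Itgb1* value was not tested. *Cdk5*, a kinase that phosphorylates collapsin response mediator proteins after Sema3A binds, was 1.16 in L6b, 3.34 in L5 and 3.19 in L2/3 among association neurons, and 4.03 in L5 and 3.37 in L2/3 among callosal neurons. It was 2.03 lower in L6b than in the nearest array (4.08-fold). *Mical2*, of the family of actin-oxidizing MICAL enzymes, was 2.92 in L6b, 4.21 in L5 and 4.27 in L2/3 among association neurons, and 4.65 in L5 and 4.24 in L2/3 among callosal neurons, so that L6b was 1.29 below its nearest (2.45-fold).

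Against the mean of the other arrays, 2 of 10 partners were at least 2-fold higher in L6b (*Chl1* and *Itgb1*) and 3 of 26 effectors lower (*Mical2*, *Cdk5* and *Gsk3b*), where the percentages for all genes were 2.44% and 6.55%. Against association L2/3, 5 of 26 effectors were lower in L6b (*Rras*, *Mical2*, *Dpysl2*, *Cdk5* and *Gsk3b*), with 10.6% among all genes. Of all 36 kept, L6b against association L5 called *Chl1* and *Itgb1* higher (background 3.5%) and *Mical2* and *Cdk5* lower (background 7.16%). Association against callosal neurons called *Rras* higher (background 5.07%) and *Tyrobp* lower (background 3.48%) in L2/3. In L5 it called *Rras* and *Limk1* lower (background 4.97%). L5 against L2/3 called *Chl1* and *Rras* lower in association neurons (background 7.36%). In callosal neurons it called *Rras* and *Limk1* higher (background 4.08%) and *Chl1* and *Tyrobp* lower (background 4.52%). With so few genes called, nothing particular to these lists is read from the counts. The part of the lower neuronal marker sums of L6b, where 4 of 6 genes in each list were lowest, in its lower effector values was not tested. *Gsk3b*, a kinase that acts on the same mediator proteins as Cdk5, was 1.53 in L6b, 2.24 in L5 and 3.06 in L2/3 among association neurons, and 2.45 in L5 and 2.45 in L2/3 among callosal neurons. *Rras*, a GTPase that plexins inactivate, was 0.85 in L6b, 0.82 in L5 and 2.56 in L2/3 among association neurons, and 3.42 in L5 and 0.38 in L2/3 among callosal neurons. Its layer difference thus ran opposite ways in the projections, L5 being 1.74 lower than L2/3 in association neurons and 3.04 higher in callosal neurons. *Limk1*, the kinase that inactivates cofilin, was between 0.61 and 1.41 in 4 arrays and 2.33 in callosal L5. *Tyrobp*, an adaptor of immune cells that associates with plexin-A1, was between 1.94 and 2.36 in 4 arrays and 3.52 in callosal L2/3. Of the 7 microglial markers, 2 (*C1qa* and *C1qb*) were also highest in callosal L2/3, while *Aif1* and *Tmem119* were lowest there and the others were neither. The list summed to 3.32 in callosal L2/3 and to between 2.84 and 3.98 in the other arrays, and the part of microglia in the *Tyrobp* value was not tested.

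**Figure D5:**
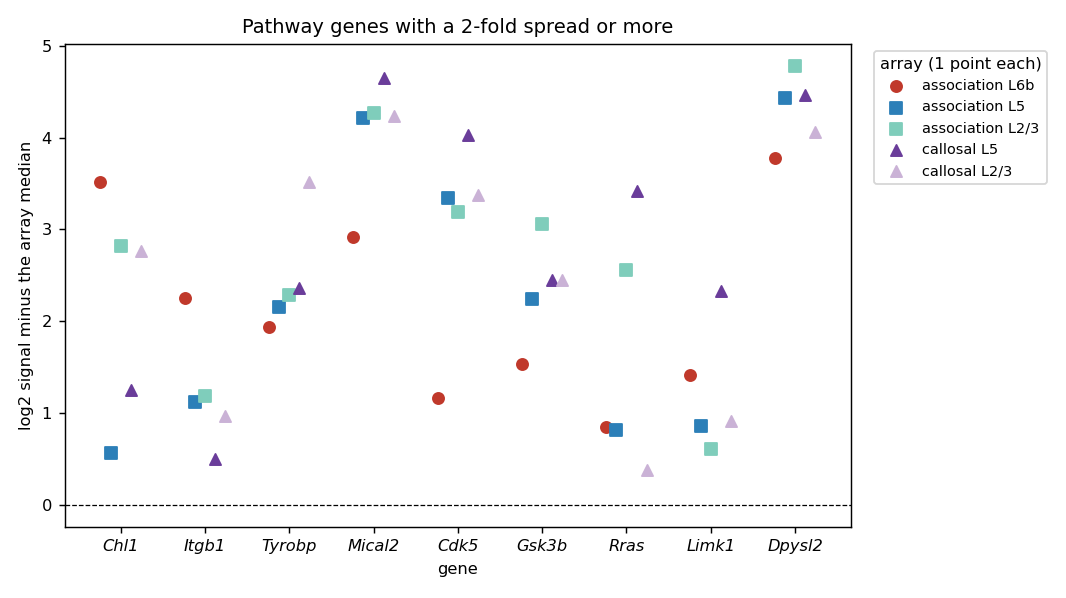
Log2 signal minus the array median (vertical axis) of the 9 partner and effector genes with a range of at least 2-fold (horizontal axis), with 1 point for each of the 5 arrays. *Cdk5* and *Mical2* are lowest and *Itgb1* and *Chl1* highest in L6b, and *Chl1* is lowest in the 2 L5 arrays (0.57 and 1.25).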

How the data were processed

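RNA of about 1000 retrogradely labelled S1 neurons per group was hybridized to Affymetrix Mouse Gene 1.0 ST arrays, 1 for each of 5 groups. The authors deposited log2 signals per probe set (1.11 to 14.2, given to 2 decimals), made with Affymetrix Expression Console. Their methods name log transformation, global normalization and centering, but the values are not centered per gene. The base of the log was taken from the range of the values, and the labels and methods give neither the program's version nor how probes were summarized. The RNA was amplified before hybridization, which may alter low transcripts most, the deposited table gives no detection call, and their number limits the precision.

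The 35556 probe sets were named from the platform annotation: 21789 had 1 gene symbol, 1621 had several and were not used, and 12146 were unnamed. All 31 members matched RefSeq by Entrez identifier. The median of each array was subtracted, a gene was represented by the brightest of its probe sets on average (29 members had 1 probe set, and *Sema4d* and *Sema6b* had 2), and genes at or above the array median in 1 array or more were kept. Differences of at least 2-fold were called. No test was run, as each group has 1 array. The differences were L6b against the mean of the other arrays, L6b against each other association array, association against callosal within a layer, and L5 against L2/3 within a projection. The scripts were checked on simulated data.

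All members are named: those with a 2-fold range or a call with every value, the others by their range or with every value where they help a comparison. Partner genes were to be named where 1 array stood 2-fold apart; *Chl1*, *Gsk3b*, *Rras*, *Limk1* and *Dpysl2* were added after their values were seen. The members, the partner lists and the marker lists were chosen with earlier results of these data known. The second *Sema4d* probe set, the search for genes low in both L5 arrays, the repeats of the count of members apart without 1 array the alternatives for partner genes and the scalings for the highest and lowest arrays were added after the values were seen. Promoter sequences are from the RefSeq table for GRCm38.p6, cut to 250 bases before the start. Alternatives were other scalings, probe set rules, filters, fold rules and arrays left out. Python 3.11.15, pandas 2.3.3, NumPy 2.4.6 and matplotlib 3.10.9 were used.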

Additional observations from a re-analysis of the deposited data

Results flagged for a closer look

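*Rras*, a GTPase that plexins inactivate, differed between projections in opposite directions in the 2 layers. It was 2.18 log2 units higher in association L2/3 (2.56) than in callosal L2/3 (0.38), whereas association L5 (0.82) minus callosal L5 (3.42) came to -2.60. Read by layer, L5 minus L2/3 was -1.74 in association neurons and 3.04 in callosal neurons. The difference between these effects was not tested, since each value comes from 1 array. No member of the semaphorin, plexin and neuropilin family was 2-fold apart in opposite directions in the same way.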

How the results depend on the processing

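The size of the call moved the counts of members most, since many differences lay between 1.5-fold and 3-fold. With a 1.5-fold rule in place of 2-fold, the members called were 8 for L6b against the mean of the other arrays (2 at 2-fold), 7 for L6b against association L5 (4 at 2-fold), 8 for L6b against association L2/3 (3 at 2-fold), 3 for association against callosal in L2/3 (1 at 2-fold), 3 in L5 (1 at 2-fold), 5 for L5 against L2/3 in association neurons (3 at 2-fold) and 4 in callosal neurons (2 at 2-fold). Members apart in a single array became 8 (3 at 2-fold), and partner genes 9 (4 at 2-fold). With a 3-fold rule the counts were 1 for L6b against the mean of the others, 0 for L6b against association L5, 0 for association against callosal in L2/3, 0 for L5 against L2/3 in association neurons, 1 for members apart and 1 for partner genes. Shares of all genes called were taken at 2-fold and with the main processing only. The counts at 1.5-fold and 3-fold therefore have no background beside them. The same holds for the counts given next under other scalings, probe sets, filters or arrays left out. Subtracting the 75th percentile instead of the median gave 5 members for L6b against association L2/3. With the mean over probe sets, or with the other *Sema4d* probe set, 0 members were called between association and callosal L5, and the other probe set left 1, *Sema3a*, for L5 against L2/3 in callosal neurons. A filter at the 75th percentile kept 10 members in place of 26.

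Leaving out each other array in turn gave 2 members each time for L6b against the mean of the remaining arrays, *Sema7a* and *Plxna4*, and 3 to 4 members apart. Quantile normalization left 2 members apart, without *Sema7a*, and called 3 for L6b against the mean of the others, with *Sema6b* added as higher. Among 1292 single values under alternatives, 1285 moved by less than 0.5 log2 units, 7 moved more and 0 changed sign past a call. The scaling moved the median gene of L6b against association L2/3 between -0.09 and 0.08. No paired analysis was possible because each group has 1 array and no result comes from a test. With 1 array per group, differences between mice, dissections or hybridizations cannot be told apart from those between the neurons, and genes near the array median have little room to show a lower level.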

Other observations

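Identical deposited values in different arrays were frequent. Of the 26 kept members, 19 had the same value, to 2 decimals, in at least 2 of the 5 arrays, against 66.7% of all genes kept, and 10 had it in at least 3 arrays, against 36.4%. The callosal L5 and L2/3 arrays had the same value for 9 members (*Sema3b*, *Sema3f*, *Sema4g*, *Sema5b*, *Sema6d*, *Plxna3*, *Plxna4*, *Plxnb1* and *Plxnb3*), against 24.6% of all genes. The shared values were not confined to dim genes, since *Sema7a* had 9.16 in association L5 and callosal L2/3 and *Plxna4* had 8.14 in 3 arrays. *Sema5a* and *Sema6d* each had 6.11 in 3 arrays, *Sema5a* in association L5, association L2/3 and callosal L5, and *Sema6d* in association L2/3 and both callosal arrays. Both probe sets of *Sema6b* had the same values in all 5 arrays. A difference of 0.00 between these arrays is therefore a statement about the deposited values and not a measured equality of expression. What made the values identical was not tested.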
